A study of Mus musculus with 48 samples.

Results

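The genes described here make sterols and fatty acids or control their making. They comprise 18 enzymes of cholesterol synthesis, the isoprenoid branch enzyme Ggps1, 6 regulators or carriers of sterols and 8 genes of fatty acid synthesis. These 33 genes were listed by symbol for their place in the pathway, by a rule that takes no measured value though earlier results of these data were known, and each matched 1 row of the 51789 gene rows of the count table. In both sets of libraries 32 of them had enough counts to be tested. Fads2, the Δ6 desaturase of polyunsaturated fatty acids, was tested in neither, and its highest level in any library was 2.27 CPM, the counts scaled to a common library total of 1000000.

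Cholesterol is built from acetyl-CoA through mevalonate, isoprenoids, squalene and lanosterol. Fatty acids start from the same acetyl-CoA, which Acly releases from citrate, and are then elongated and desaturated. Both branches are switched on by SREBP transcription factors. SREBP-2, from Srebf2, acts mainly on sterol genes and SREBP-1, from Srebf1, on fatty acid genes, while Scap carries both to the Golgi for cleavage and the Insig proteins hold them back when sterols are plentiful. In macrophages, oxidised sterols also activate LXR, a receptor that drives cholesterol export genes and Srebf1.

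The series measured how the compound AP-3-84, which the labels name without describing, changes RNA in mouse macrophages of different origin. RNA was read from the 3′ ends of transcripts in 48 libraries, which form 16 groups of 3, made of 8 macrophage populations each kept 4 h with 10 µM AP-3-84 or with its vehicle DMSO. All labels give the strain as C57BL/6 and none gives an age. The ascites cells came from mice of the genotype B6(Cg)-Tyrc-2J/J that carried ID8, a mouse ovarian tumour line, for 45 days. The thio cells came from wild-type mice 4 days after an injection of 3% thioglycollate (1 mL), which recruits macrophages by irritation. Both were taken from the peritoneum and selected for F4/80 with magnetic beads. For the remaining 6 populations, marrow of WT or p53 KO mice was grown into macrophages over 6 days in M-CSF at 10 ng/mL. They stayed unpolarized (M0) or received, for 24 h more, LPS at 100 ng/mL with IFN-γ at 50 ng/mL (M1) or 10 ng/mL of IL-4 together with 10 ng/mL of IL-13 (M2). The names WT_M0, WT_M1, WT_M2, KO_M0, KO_M1 and KO_M2 are used below. The genotype field calls all bone marrow-derived libraries wild-type, so WT and KO follow titles, descriptions and the design text. The labels do not say whether replicates are separate animals or cultures, so p-values measure the spread between these libraries, which may be technical.

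The promoters of 6 members that were called in comparisons below and had a promoter window are shown. They are Hmgcs1, Msmo1, Hsd17b7 and Acat2 for the sterol branch, Fasn and Acly for the fatty acid branch. Each run is the 250 bases before the RefSeq start site in GRCm38.p6, 5′ to 3′ on the gene's own strand. Capitals mark CCAAT, the box bound by NF-Y, on either strand (ATTGG on the other), and in Hmgcs1 also TCACCCCAC, the core of the classic sterol regulatory element.
Hmgcs1 (chr13:119690101-119690350, plus strand): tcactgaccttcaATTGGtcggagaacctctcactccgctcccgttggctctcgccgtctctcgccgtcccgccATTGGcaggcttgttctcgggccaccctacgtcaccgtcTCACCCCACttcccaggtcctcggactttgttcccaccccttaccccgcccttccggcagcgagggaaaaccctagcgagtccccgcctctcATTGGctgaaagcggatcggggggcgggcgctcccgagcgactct
Msmo1 (chr8:64733579-64733828, minus strand): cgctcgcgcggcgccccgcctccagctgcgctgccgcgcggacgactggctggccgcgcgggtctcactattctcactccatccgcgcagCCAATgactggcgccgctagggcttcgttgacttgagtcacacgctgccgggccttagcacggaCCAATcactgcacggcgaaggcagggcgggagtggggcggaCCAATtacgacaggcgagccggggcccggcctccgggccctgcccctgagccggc
Hsd17b7 (chr1:169969206-169969455, minus strand): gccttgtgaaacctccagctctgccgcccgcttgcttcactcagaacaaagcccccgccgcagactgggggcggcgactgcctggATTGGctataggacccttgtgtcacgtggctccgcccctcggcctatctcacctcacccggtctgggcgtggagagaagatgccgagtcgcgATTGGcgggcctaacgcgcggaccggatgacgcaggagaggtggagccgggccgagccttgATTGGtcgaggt
Acat2 (chr17:12960726-12960975, minus strand): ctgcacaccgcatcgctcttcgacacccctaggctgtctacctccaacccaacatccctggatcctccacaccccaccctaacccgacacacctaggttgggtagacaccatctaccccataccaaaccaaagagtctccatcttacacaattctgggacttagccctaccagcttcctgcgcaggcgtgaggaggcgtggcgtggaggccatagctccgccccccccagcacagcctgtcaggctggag
Fasn (chr11:120824548-120824797, minus strand): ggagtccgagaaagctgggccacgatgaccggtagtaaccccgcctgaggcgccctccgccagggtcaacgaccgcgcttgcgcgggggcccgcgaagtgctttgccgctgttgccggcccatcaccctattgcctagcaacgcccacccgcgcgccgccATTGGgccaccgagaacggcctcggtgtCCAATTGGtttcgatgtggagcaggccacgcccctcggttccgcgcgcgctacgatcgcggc
Acly (chr11:100528001-100528250, minus strand): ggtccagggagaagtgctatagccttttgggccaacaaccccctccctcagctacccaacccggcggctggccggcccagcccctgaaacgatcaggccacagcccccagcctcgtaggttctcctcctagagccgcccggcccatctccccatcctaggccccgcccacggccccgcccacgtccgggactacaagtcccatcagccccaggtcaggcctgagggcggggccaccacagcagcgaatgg
Promoter windows were found for 26 of the 33 members, but not for Fdps, Fdft1, Sqle, Stard4, Fads1, Scd1 or Scd2. Of these, Fdps and Fads1 were called in 7 and 6 comparisons, against 2 for Acly and 3 for Fasn. CCAAT stood in the window of 20 of these 26 genes, against 37.5% of the 27025 genes with a window and 33.9% of all 32851 windows of this length. Among the sterol enzymes 14 of 15 had it, Acat2 being the exception, and among the fatty acid genes 1 of 5, Fasn, which has 3 boxes of which 2 overlap. The core TCACCCCAC, searched exactly on both strands, stood in 0.496% of windows and, among the members, only in that of Hmgcs1, 137 bases before the start. The relaxed form TCACNCCAC, of which the core is a case, stood in 1.05% of windows and in no further member. The E-box CACGTG stood in 6.02% of windows and in 5 member genes, Dhcr7, Hsd17b7, Insig1, Sc5d and Scap. These are letters in a window of this length and say nothing of binding.

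The 12 peritoneal libraries held 15532373 to 19417581 counts each and the 36 bone marrow-derived ones 3081707 to 4645148, so the latter give less precise values. The summed level of 7 macrophage markers was between 23700 and 34700 CPM (peritoneal) and between 5890 and 48700 CPM (bone marrow-derived). Lyz2 weighs most in these sums, at 19300 to 31000 CPM (peritoneal) and 3090 to 41700 CPM (bone marrow-derived). Single markers could be low: Fcgr1 went down to 18.6 CPM in peritoneal and 3.06 CPM in bone marrow-derived libraries. The lowest 2 sums, 5890 and 9340 CPM, were KO_M2 vehicle replicates 3 and 2. Neutrophil markers summed to over 3000 CPM in 3 libraries, WT_M2 vehicle replicate 1 (4030 CPM), KO_M1 AP-3-84 replicate 1 (3710 CPM) and KO_M2 vehicle replicate 3 (3350 CPM). S100a8 and S100a9 weigh most in this sum, reaching 2310 and 1420 CPM in bone marrow-derived libraries, against 233 CPM for Ngp. KO_M0 AP-3-84 replicates 1 and 2 stood apart from replicate 3 in Marco, a scavenger receptor (2900 and 2070 against 473 CPM), and KO_M0 vehicle stood apart from WT_M0 vehicle in Marco (14.3 to 17.5 against 1170 to 2070 CPM) and in the proliferation gene Mki67 (27.5 to 40.6 against 194 to 272 CPM). WT_M2 vehicle replicate 1 also stood apart from replicates 2 and 3 in Marco (1090 against 130 and 83.6 CPM). The same held for Saa3 (3420 against 201 and 174 CPM) and Ifit1 (79.9 against 22 and 5.38 CPM). These genes were picked after their values were seen. In bulk RNA, fewer cells of a type and less RNA per cell cannot be told apart.

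Below, a gene is called when edgeR's quasi-likelihood test gives a Benjamini-Hochberg adjusted p under 0.05 over all genes tested. Counts at an unadjusted p under 0.05 are given for members only, without the share of all genes, so they show nothing particular to members. Counts by sign are likewise of members only, beside the median of all genes. Counts called in alternative runs, such as those without 1 library, are also of members only. The share of all genes called in such a run is not given, so these counts show how stable the calls are and nothing particular to members. Of the 33 members, 23 were called in at least 1 of the 22 comparisons, and 9 that were tested were never called: Mvk, Tm7sf2, Nsdhl, Ebp, Insig2, Srebf1, Srebf2, Acaca and Elovl6. Both SREBP genes were thus never called. Acat2 and Fdps were called most often, in 7 comparisons each. Members with values in every library were picked by lowest p, so groups without overlap in them follow in part from that choice. Such a lack of overlap describes the values and is no separate support, and the share of all genes without overlap is not given. The heatmap of fold changes gives each member in the 16 comparisons of 2 groups.

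**Figure D1:**
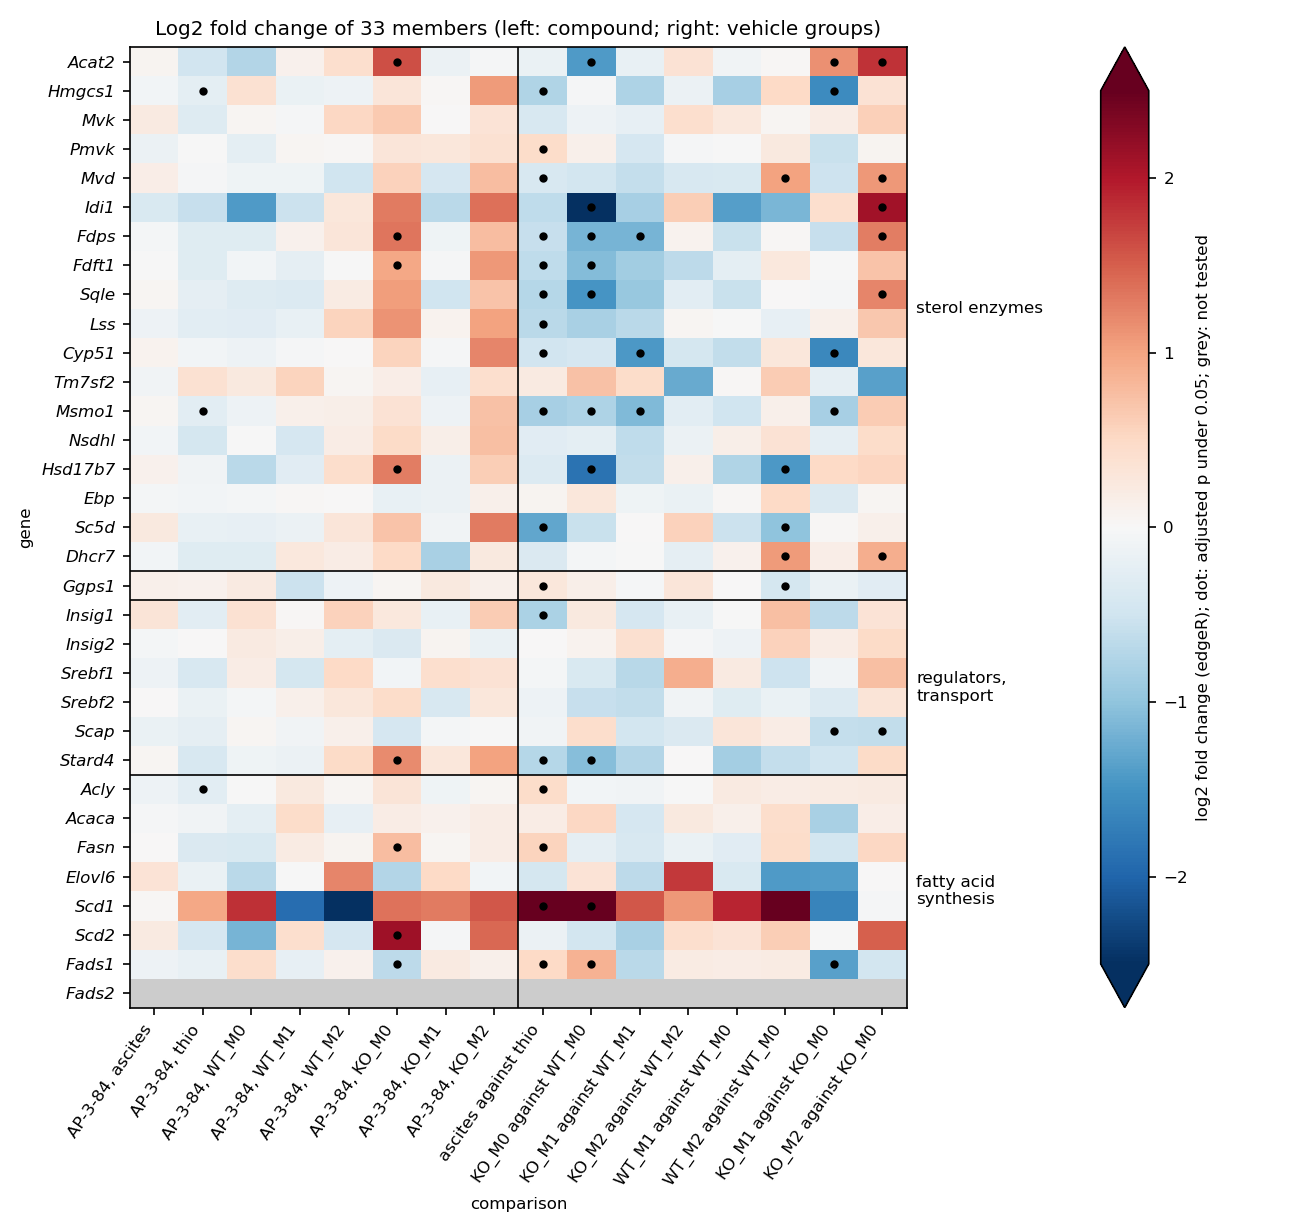
Log2 fold change (colour) of the 33 members (rows, by role) in 8 comparisons of AP-3-84 with vehicle (left) and 8 of vehicle groups (right); dots mark an edgeR adjusted p under 0.05 and grey marks Fads2, which was not tested. Called members are most frequent in ascites against thio, where 17 carry a dot, and in KO_M0 against WT_M0, where 10 do.

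In vehicle-treated ascites macrophages 9 of 18 sterol enzymes were lower, and 4 of 7 tested fatty acid genes higher, than in thio macrophages. Of the 32 members tested 17 were called, 6 higher and 11 lower, where 33.7% of all 16955 genes were called (20.3% higher and 13.4% lower). Of the sterol enzymes 1, Pmvk, was higher, and of the regulators and carriers Insig1 and Stard4 were lower. All 4 called fatty acid genes, Scd1, Acly, Fads1 and Fasn, were higher, as was Ggps1. The share called was 53.1% of the tested members, above that of all genes. The median log2 fold change was -0.44 over the sterol enzymes, 0.45 over the 7 tested fatty acid genes and 0.05 over all genes. With median-ratio size factors 4 members were called higher and 12 lower, Pmvk and Ggps1 no longer being called. Total-count scaling moved the median of all genes to 0.14 and called 7 higher and 11 lower.

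Sc5d, the desaturase near the end of the pathway, stood at 21.1, 18.4 and 20.2 CPM in ascites and at 49.5, 45.7 and 51.6 CPM in thio. The groups did not overlap, and its log2 fold change of -1.30 was the lowest among the 18 sterol enzymes (standard error 0.0998, adjusted p 1.19e-08 in edgeR). Hmgcs1, which makes the HMG-CoA that feeds mevalonate, gave 125, 124 and 130 CPM in ascites against 210, 208 and 219 CPM in thio. Hmgcs1 did not overlap between the groups either, and its log2 fold change was -0.75 (standard error 0.0606, adjusted p 2.21e-08 in edgeR). Msmo1, the C4-methylsterol oxidase whose promoter has 3 CCAAT boxes, gave 80, 77.3 and 85.8 against 146, 142 and 142 CPM. Its log2 fold change was -0.82 (standard error 0.0681, adjusted p 3.21e-08 in edgeR), again without overlap. Insig1, the sterol-sensing retention protein and itself an SREBP target, gave 16.3, 21.5 and 23.7 against 36.6, 35.6 and 34.9 CPM (log2 fold change -0.80, standard error 0.117, adjusted p 3.03e-05 in edgeR). The other lower members, Mvd, Fdps, Fdft1, Sqle, Lss, Cyp51 and the sterol carrier Stard4, had log2 fold changes between -0.41 for Mvd and -0.70 for Sqle and Stard4.

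Scd1, the desaturase that makes oleate, was close to absent in thio, at 0.0638, 0.121 and 0.325 CPM, and stood at 3, 3.65 and 3.91 CPM in ascites. Every ascites library was above every thio library, with a log2 fold change of 4.27 (standard error 0.472, adjusted p 1.2e-06 in edgeR). Acly, the citrate lyase, gave 111, 115 and 112 CPM in ascites and 81, 84.8 and 82.1 CPM in thio (log2 fold change 0.45, standard error 0.0674, adjusted p 3.8e-05 in edgeR). Fads1, the Δ5 desaturase, gave 57.5, 50.6 and 60.9 against 46.5, 34.3 and 38.4 CPM (log2 fold change 0.50, standard error 0.114, adjusted p 0.00196 in edgeR). Neither Acly nor Fads1 overlapped between the groups. Fasn, the fatty acid synthase, had a log2 fold change of 0.56 (standard error 0.137, adjusted p 0.00361 in edgeR). Acaca, Elovl6 and Scd2 were not called. The ratio of the summed fatty acid genes to the summed sterol enzymes was 0.401 to 0.433 in the 3 ascites libraries and 0.219 to 0.223 in the 3 thio libraries.

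Pmvk and Ggps1, the 2 called members with the highest adjusted p (edgeR, 0.0477 and 0.0308), each lost the call when single libraries were left out: Pmvk without any of the 6 libraries, Ggps1 without ascites vehicle replicate 1 or 3 or thio vehicle replicate 2. The other 15 calls held in every alternative run. Markers of epithelial, mesothelial or ID8 cells, 8 of 8 with counts, summed to 211 to 249 CPM in ascites vehicle and to 2.98 to 4.98 CPM in thio vehicle, where Epcam and Msln were at 0. Mki67 stood at 43.5 to 48 CPM in ascites and at 7.41 to 7.97 CPM in thio. The part of either in these differences was not tested. Ascites and thio donors also differed in genotype and in carrying a tumour or receiving thioglycollate, which cannot be told apart here.

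**Figure D2:**
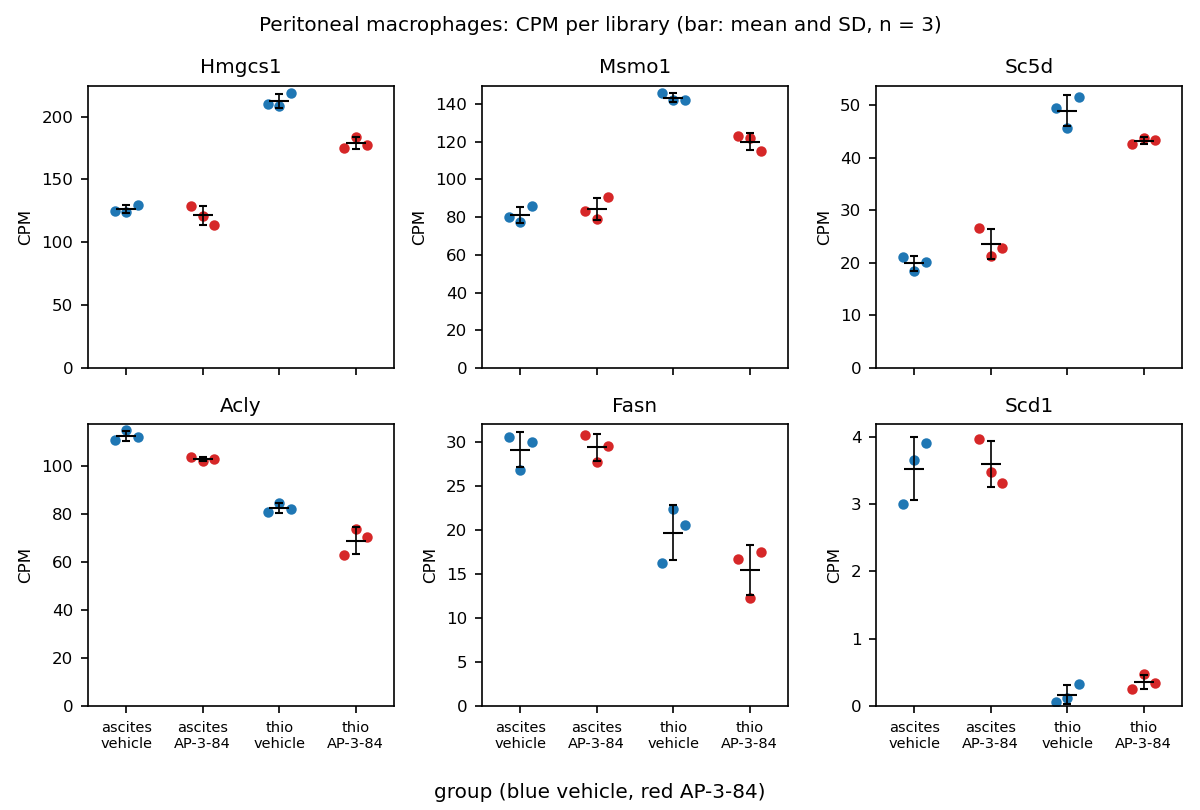
CPM (vertical axes, from 0) of 6 members in the 12 peritoneal libraries, grouped on the horizontal axis as ascites or thio with vehicle (blue) or AP-3-84 (red); bars give mean and SD, n = 3. Hmgcs1, Msmo1 and Sc5d sit lower and Acly, Fasn and Scd1 higher in ascites than in thio, and in thio the AP-3-84 points of Hmgcs1, Msmo1 and Acly all lie below the vehicle points.

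Beside the members, 3 further lists were counted between ascites and thio. Of 13 further sterol and SREBP genes 2 were higher and 3 lower, of 6 LXR targets 3 were higher and 1 lower, and of 17 tested further fatty acid genes 3 were higher and 2 lower. These are 38.5%, 66.7% and 29.4% of the lists against 33.7% of all genes, so the first and the last are near the background. Soat1, which esterifies cholesterol for storage, was 549.8 ± 12.3 CPM in ascites and 1182 ± 22.1 CPM in thio (n = 3, SD; log2 fold change -1.10, edgeR adjusted p 1.81e-11). Npc1, which lets cholesterol leave lysosomes, was 177.9 ± 7.46 against 406.9 ± 8.87 CPM (n = 3, SD; log2 fold change -1.19, edgeR adjusted p 3.53e-11). Me1, the malic enzyme that supplies NADPH for fatty acid synthesis, was 36.97 ± 2.35 against 9.35 ± 0.508 CPM (n = 3, SD; log2 fold change 1.98, edgeR adjusted p 1.14e-10).

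With AP-3-84, 3 members were slightly lower in thio macrophages and none was called in ascites macrophages. In thio the 3 made up 9.38% of the tested members, where 4.32% of all genes were called (1.82% lower). Hmgcs1 went from 210, 208 and 219 CPM with vehicle to 175, 184 and 177 CPM with AP-3-84. Msmo1 went from 146, 142 and 142 to 123, 122 and 115 CPM. Acly went from 81, 84.8 and 82.1 to 62.8, 73.8 and 70.3 CPM. In all 3 genes, picked because they were called, every treated library lay below every vehicle library. The log2 fold changes were -0.25 for Hmgcs1 (SE 0.0602), -0.25 for Msmo1 (SE 0.0675) and -0.26 for Acly (SE 0.0681), with edgeR adjusted p of 0.0241, 0.0413 and 0.0374. Of the 32 tested members 28 had a negative log2 fold change, with a median of -0.25 over the sterol enzymes, -0.18 over the fatty acid genes and 0.03 over all genes. At an unadjusted p under 0.05 there were 14 members, all lower, and the share of all genes at that threshold was not counted. The calls were not stable: leaving out 1 library left 2 without thio AP-3-84 replicate 2 and 0 without any other of the 6 libraries, and DESeq2 called 4. The summed macrophage markers were 34300 to 34700 CPM with vehicle and 27600 to 32700 CPM with AP-3-84 in thio, without overlap. In ascites, where no member was called, they were 28700 to 30500 CPM with vehicle and 23700 to 28400 CPM with AP-3-84. Their part in the values of the members was not tested.

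In ascites edgeR called 0 members, where 1.79% of all genes were called. An unadjusted p under 0.05 was reached by 2, both with higher values, and DESeq2 called 0. Insig1, the sterol member with the lowest p, gave 16.3, 21.5 and 23.7 CPM with vehicle and 26.7, 24.2 and 25.7 CPM with AP-3-84 (log2 fold change 0.32, standard error 0.118, adjusted p 0.293 in edgeR). Acly, the fatty acid gene with the lowest p, gave 111, 115 and 112 against 104, 102 and 103 CPM (log2 fold change -0.13, standard error 0.0671, adjusted p 0.512 in edgeR). The test of the difference between the responses in ascites and thio called 0 members, against 0.118% of all genes. An unadjusted p under 0.05 was reached by 8, all with a higher value in ascites, with no share of all genes counted. DESeq2 called 0. The heat shock gene Hspa1a rose in both populations (log2 fold changes 8.22 and 6.52, edgeR adjusted p 3.73e-10 and 2.17e-09).

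Single genes of the further lists were called in thio with AP-3-84. Me1 rose from 9.35 ± 0.508 to 17.25 ± 2.02 CPM (n = 3, SD; log2 fold change 0.88, edgeR adjusted p 9.93e-05). Acss2, which makes acetyl-CoA from acetate, rose from 2.26 ± 0.274 to 5.67 ± 1.32 CPM (n = 3, SD; log2 fold change 1.32, edgeR adjusted p 0.00301). Abca1, the LXR-driven cholesterol exporter, fell from 90.45 ± 5.69 to 64.4 ± 0.388 CPM (n = 3, SD; log2 fold change -0.49, edgeR adjusted p 0.000217). Of the 13 further sterol genes 1 was lower, of the 6 LXR targets 1 was lower, and of the 17 further fatty acid genes 2 were higher, which is 7.69%, 16.7% and 11.8% of these short lists against 4.32% of all genes. In ascites none of these 3 lists had a called gene.

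Among unpolarized bone marrow-derived macrophages with vehicle, 8 sterol genes were lower in KO than in WT. In KO_M0 against WT_M0, 10 members were called, 2 higher and 8 lower, where 33.2% of all 11779 genes were called (16.4% higher and 16.8% lower). The members' share, 31.2%, was near that of all genes, so the count as such says nothing particular about them. The lower ones were 7 sterol enzymes and Stard4, and the higher ones were Fads1 and Scd1. The median log2 fold change was -0.51 over the sterol enzymes, 0.35 over the fatty acid genes and 0.03 over all genes.

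Hsd17b7, a reductase of the C4-demethylation step, stood at 24.5, 18.6 and 21.2 CPM in WT_M0 and at 5.5, 4.93 and 7.3 CPM in KO_M0. The log2 fold change was -1.85 (standard error 0.305, adjusted p 3.01e-05 in edgeR) and the groups were far apart. Acat2, the cytosolic thiolase that starts the pathway, gave 26, 21.7 and 17.9 CPM in WT_M0 and 7.86, 5.85 and 10.8 CPM in KO_M0. Its log2 fold change was -1.41 (standard error 0.263, adjusted p 0.000138 in edgeR). Fdps, the farnesyl diphosphate synthase, gave 52, 63.6 and 55 against 28, 28.3 and 20 CPM (log2 fold change -1.16, standard error 0.302, adjusted p 0.00386 in edgeR). Sqle, the squalene epoxidase, gave 20.4, 35.4 and 25 against 13.1, 10.8 and 5.14 CPM (log2 fold change -1.47, standard error 0.403, adjusted p 0.00565 in edgeR). None of these 4 genes, picked by lowest p, overlapped between genotypes. Idi1, Fdft1, Msmo1 and Stard4 were lower by log2 fold changes of -2.62, -1.08, -0.76 and -1.07. Idi1, the isopentenyl isomerase, had 0.811 to 2.88 CPM in KO_M0, so its fold rests on few counts.

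Fads1 went the other way, from 39.5, 41.8 and 43.5 CPM in WT_M0 to 70, 86.2 and 72.2 CPM in KO_M0 (log2 fold change 0.87, standard error 0.221, adjusted p 0.00295 in edgeR). Scd1 had 0 counts in the 3 WT_M0 vehicle libraries and 12 counts over the 3 KO_M0 vehicle libraries. It was called higher in KO_M0 (edgeR adjusted p 0.00926). Its KO_M0 level was 4.66-fold a chosen floor of 3 counts over the WT_M0 group. With so few counts the true ratio could be smaller. Fasn, Acly and Scd2 were not called. Of the 10 calls, 8 held whichever library was left out. Stard4 lost its call without WT_M0 vehicle replicate 2 and without each of the 3 KO_M0 vehicle libraries, and Msmo1 without these 4 and also without WT_M0 vehicle replicate 1. With only the 2 groups in the fit Scd1 did not pass the filter on low counts and was not tested.

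KO_M0 and WT_M0 vehicle also differed in genes beside the members. Tmem97, a sterol-regulated partner of Npc1, was 27.47 ± 1.55 CPM in KO_M0 and 62.28 ± 5.77 CPM in WT_M0 (n = 3, SD; log2 fold change -1.18, edgeR adjusted p 1.71e-05). Nr1h3, which encodes LXRα, was 22.65 ± 4.15 against 52.47 ± 9.83 CPM (n = 3, SD; log2 fold change -1.21, edgeR adjusted p 0.000329), and Me1 was 12 ± 4.23 against 31.13 ± 0.438 CPM (n = 3, SD; log2 fold change -1.37, edgeR adjusted p 0.000613). Of the further sterol genes 4 were higher and 3 lower, of the LXR targets 2 higher and 1 lower, and of 12 tested further fatty acid genes 1 higher and 3 lower. These are 53.8%, 50% and 33.3% of the lists against 33.2% of all genes, so the fatty acid list is at the background. Cdkn1a, the p53 target used to check the genotypes, had a log2 fold change of -4.58 (edgeR adjusted p 1.12e-10). With vehicle its group means were 38.8 CPM in KO_M0 and 926 CPM in WT_M0. The genotypes were less far apart in M1 (231.7 against 671.7 CPM) and in M2 (96.93 against 896.7 CPM), so this check is weaker there. Neutrophil markers summed to 597 to 748 CPM in KO_M0 and 280 to 509 CPM in WT_M0, and Mki67 and Marco, given above, differed between the same groups. Their part in these values was not tested.

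In M1, 3 sterol enzymes were lower in KO than in WT, and in M2 no member was called. In KO_M1 against WT_M1 these 3 were 9.38% of the tested members, where 11.6% of all genes were called (5.71% lower), so the count is near the background. Msmo1 gave 63.2, 60.7 and 64.2 CPM in WT_M1 and 25.5, 30.1 and 32.1 CPM in KO_M1 (log2 fold change -1.10, standard error 0.272, adjusted p 0.00902 in edgeR). Fdps gave 40.5, 41.1 and 33.7 against 12.6, 19.5 and 19.2 CPM (log2 fold change -1.16, standard error 0.311, adjusted p 0.0146 in edgeR). Cyp51, the lanosterol demethylase, gave 29.8, 37.6 and 31.7 against 11.5, 15.4 and 9.82 CPM (log2 fold change -1.43, standard error 0.432, adjusted p 0.0302 in edgeR). In all 3 genes, picked because they were called, every KO library lay below every WT library. The median log2 fold change was -0.62 over the sterol enzymes, -0.42 over the fatty acid genes and 0.00 over all genes, and 28 of 32 members were negative. Leaving out KO_M1 vehicle replicate 1 left 0 calls, WT_M1 vehicle replicate 1 or 2 left 1, and KO_M1 vehicle replicate 3 or WT_M1 vehicle replicate 3 left 2. Total-count scaling moved the median of all genes to 0.27 and still called 3. Macrophage markers summed to 16100 to 25100 CPM in KO_M1 vehicle and to 43600 to 46500 CPM in WT_M1 vehicle, and neutrophil markers to 988 to 2550 against 439 to 568 CPM. Their part was not tested.

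In KO_M2 against WT_M2 edgeR called 0 members, where 3.56% of all genes were called. An unadjusted p under 0.05 was reached by 2, and DESeq2 called 0. Fdft1, the squalene synthase, gave 24.8, 24.7 and 41.2 CPM in WT_M2 and 31.8, 16 and 10.2 CPM in KO_M2 (log2 fold change -0.65, standard error 0.308, adjusted p 0.242 in edgeR). Elovl6, the elongase of palmitate, gave 0.278, 0.905 and 1.58 against 2.39, 3.15 and 3.97 CPM (log2 fold change 1.77, standard error 0.611, adjusted p 0.0964 in edgeR). In this comparison the vehicle groups themselves spread widely. The summed sterol enzymes were 484, 736 and 956 CPM in the 3 WT_M2 vehicle libraries and 925, 522 and 397 CPM in the 3 KO_M2 vehicle libraries. Without KO_M2 vehicle replicate 1, the highest of its group, Fdft1, Mvd and Msmo1 were called lower.

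**Figure D3:**
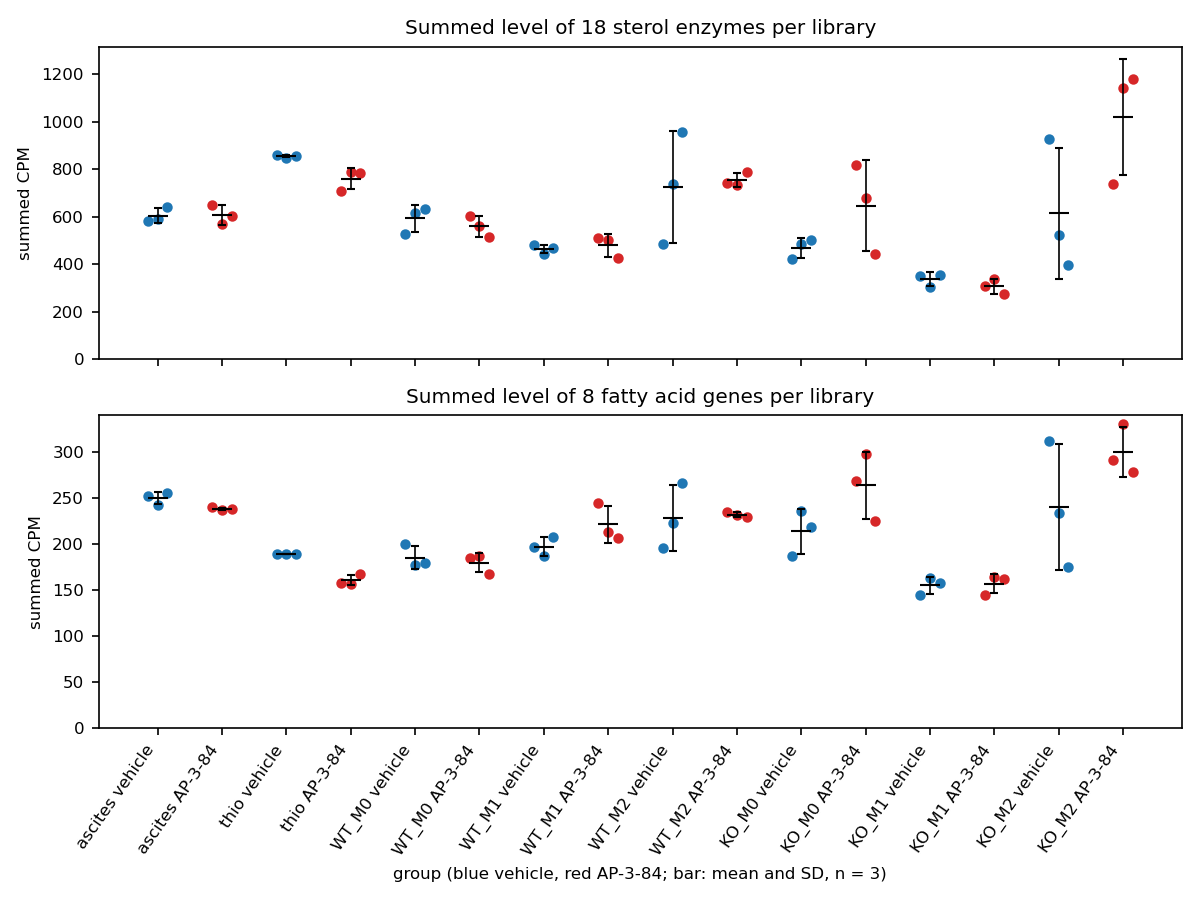
Summed CPM of the 18 sterol enzymes (top) and the 8 fatty acid genes (bottom) in each of the 48 libraries, by group on the horizontal axis, vehicle in blue and AP-3-84 in red, with mean and SD, n = 3. Groups such as thio vehicle (848 to 860 CPM in the top panel) are tight, while WT_M2 vehicle, KO_M0 AP-3-84 and both KO_M2 groups spread more widely.

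With AP-3-84, 7 members were higher in KO_M0 macrophages and none was called in WT_M0. In KO_M0, 8 members were called, 7 higher and 1 lower, where 20.7% of all genes were called (12.1% higher and 8.57% lower). The members' share of 25% was close to that of all genes. The higher ones were 4 sterol enzymes, Acat2, Fdps, Hsd17b7 and Fdft1, the carrier Stard4, and Scd2 and Fasn of the fatty acid branch. Fads1 was lower. The median log2 fold change was 0.62 over the sterol enzymes, 0.33 over the fatty acid genes and -0.03 over all genes.

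Acat2 went from 7.86, 5.85 and 10.8 CPM with vehicle to 23.2, 36.5 and 15.6 CPM with AP-3-84 (log2 fold change 1.61, standard error 0.262, adjusted p 5.36e-05 in edgeR). Fdps went from 28, 28.3 and 20 to 86.4, 74.7 and 30.7 CPM (log2 fold change 1.33, standard error 0.302, adjusted p 0.00215 in edgeR). In both genes the treated libraries lay above all vehicle libraries, and replicate 3 was the lowest of the treated. Hsd17b7 went from 5.5, 4.93 and 7.3 to 20.7, 13.1 and 9.53 CPM (log2 fold change 1.28, standard error 0.309, adjusted p 0.00336 in edgeR). Stard4 went from 10.5, 9.85 and 10.5 to 29.1, 27.1 and 13.8 CPM (log2 fold change 1.18, standard error 0.367, adjusted p 0.0211 in edgeR), with the same order. Scd2, a stearoyl-CoA desaturase, went from 11.3, 8.62 and 4.87 to 25, 57.7 and 24.9 CPM (log2 fold change 2.12, standard error 0.665, adjusted p 0.0247 in edgeR). Fasn, at 23.3, 54.5 and 47.3 CPM with vehicle and 79.6, 86.3 and 47.4 CPM with AP-3-84, overlapped between the groups (log2 fold change 0.77, standard error 0.261, adjusted p 0.0327 in edgeR). Fads1 went from 70, 86.2 and 72.2 to 48, 38.5 and 59.6 CPM (log2 fold change -0.64, standard error 0.22, adjusted p 0.0345 in edgeR) without overlap.

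The treated KO_M0 libraries were unequal. Their summed sterol enzymes were 818, 678 and 441 CPM in replicates 1, 2 and 3, against 423 to 501 CPM with vehicle. Leaving out AP-3-84 replicate 1 or 2 left 3 calls, leaving out vehicle replicate 3 left 4, and leaving out AP-3-84 replicate 3 gave 12. Acat2 and Fdps were called whichever library was left out. Without AP-3-84 replicate 1 the calls of Hsd17b7, Stard4, Fdft1, Fasn and Fads1 were lost, and without replicate 2 those of Scd2, Stard4, Fdft1, Fasn and Fads1. Without vehicle replicate 1 those of Stard4, Fdft1 and Fasn were lost, without replicate 2 those of Stard4, Scd2 and Fads1, and without replicate 3 those of Stard4, Scd2, Fdft1 and Fads1. A fit of these 2 groups alone called 2 members, Acat2 and Scd2. Marco was 2900, 2070 and 473 CPM in the treated libraries and 14.3 to 17.5 CPM with vehicle, and Mki67 48.4 to 117 against 27.5 to 40.6 CPM. Macrophage markers summed to 38800, 17900 and 29100 CPM in the treated libraries and to 32300 to 38900 CPM with vehicle. The part of these differences was not tested.

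In WT_M0 edgeR called 0 members with AP-3-84, where 0.144% of all genes were called. An unadjusted p under 0.05 was reached by 3, all lower, and DESeq2 called 0. Acat2 gave 26, 21.7 and 17.9 CPM with vehicle and 13.5, 12.8 and 13.4 CPM with AP-3-84 (log2 fold change -0.73, standard error 0.249, adjusted p 0.327 in edgeR), the opposite side from KO_M0 without overlap. Fads1 gave 39.5, 41.8 and 43.5 against 56.8, 60.8 and 51.8 CPM (log2 fold change 0.44, standard error 0.221, adjusted p 0.542 in edgeR), again opposite to KO_M0. The difference between the responses of KO_M0 and WT_M0 was itself called for 6 members, 5 higher and 1 lower in KO_M0, where 17% of all genes (10% higher and 6.99% lower) and 18.8% of the tested members were called. They were Acat2 (2.34 on the log2 scale, edgeR adjusted p 6.43e-05), Hsd17b7 (1.95, edgeR adjusted p 0.00198), Fdps (1.63, edgeR adjusted p 0.00807), Scd2 (3.28, edgeR adjusted p 0.0223) and Fasn (1.15, edgeR adjusted p 0.0288), with Fads1 at -1.09 (edgeR adjusted p 0.0154). Leaving out KO_M0 AP-3-84 replicate 2 left 3 calls and leaving out its replicate 3 gave 11, while WT_M0 AP-3-84 replicate 1 or WT_M0 vehicle replicate 1 left 4. The KO_M0 vehicle libraries enter this difference and also the genotype and polarization comparisons, so a low or high value in them moves all of these together.

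**Figure D4:**
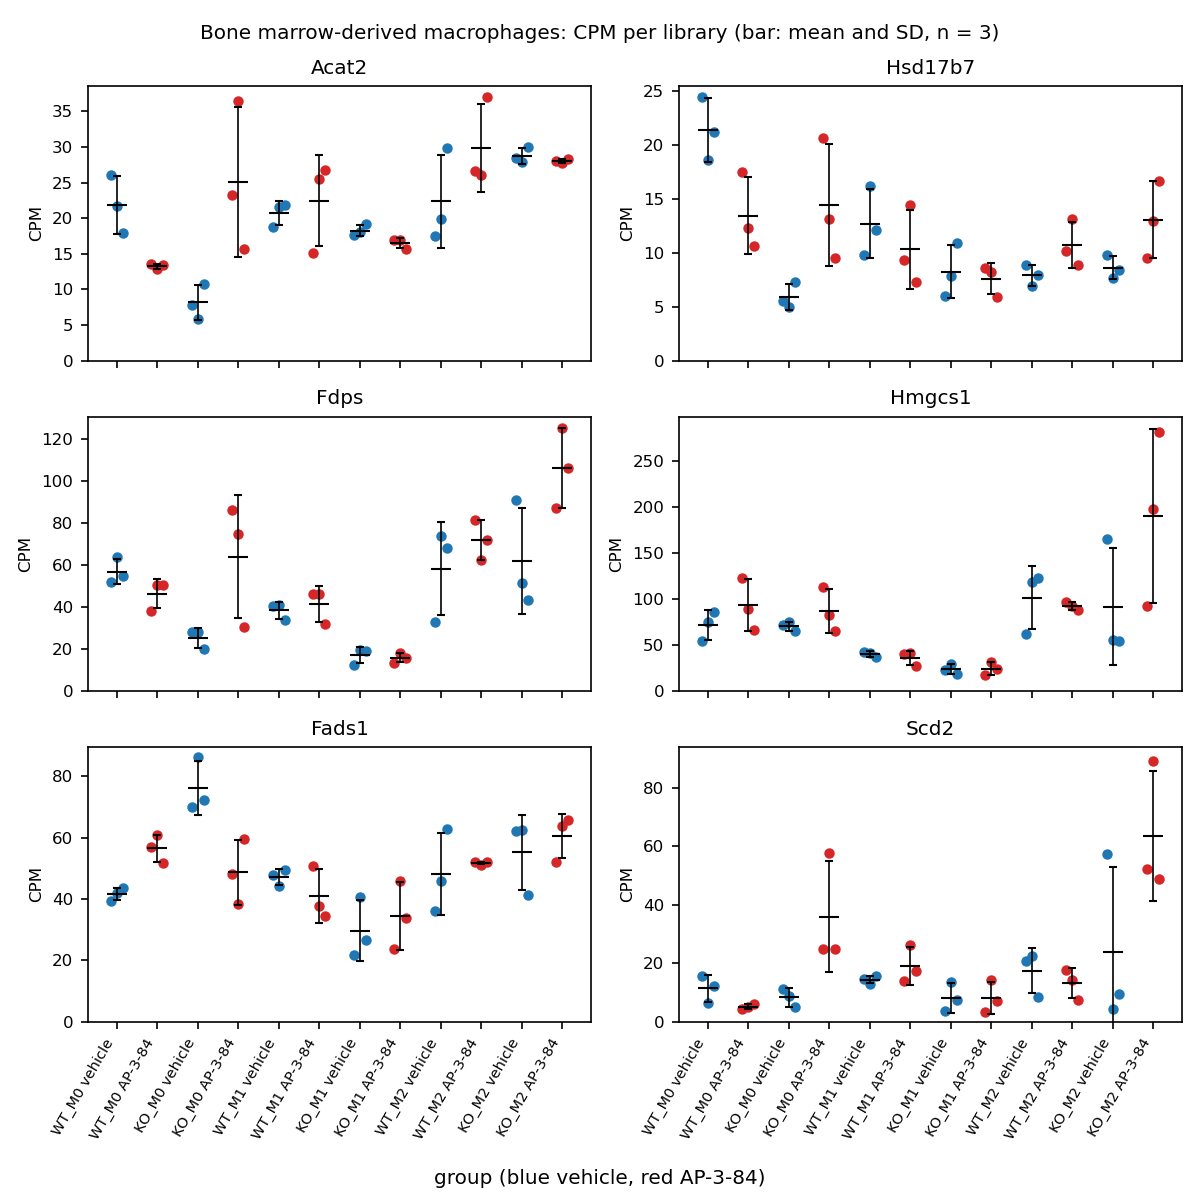
CPM (vertical axes, from 0) of 6 members in the 36 bone marrow-derived libraries, ordered M0, M1 and M2 on the horizontal axis, vehicle in blue and AP-3-84 in red, with mean and SD, n = 3. By group mean, Acat2 and Hsd17b7 are lowest in KO_M0 vehicle, Hsd17b7 is highest in WT_M0 vehicle, and Fads1 is highest in KO_M0 vehicle.

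Genes of the further lists were called in KO_M0 with AP-3-84 as well. Nr1h3 rose from 22.65 ± 4.15 to 56.27 ± 23.6 CPM (n = 3, SD; log2 fold change 1.31, edgeR adjusted p 0.000273). Soat1 fell from 443.7 ± 31.7 to 258.3 ± 109.6 CPM (n = 3, SD; log2 fold change -0.78, edgeR adjusted p 0.00134), and Npc1 fell from 232.3 ± 17.5 to 135 ± 44.5 CPM (n = 3, SD; log2 fold change -0.78, edgeR adjusted p 0.00149). Of the further sterol genes 2 were higher and 4 lower, of the LXR targets 1 was higher, and of the 12 further fatty acid genes 4 were higher and 1 lower. These are 46.2%, 16.7% and 41.7% of the lists against 20.7% of all genes, so the LXR list is not above the background.

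In KO_M2 most members had higher values with AP-3-84, and none was called. Of 32 members 28 had a positive log2 fold change, with medians of 0.75 over the sterol enzymes, 0.19 over the fatty acid genes and 0.00 over all genes. EdgeR called 0 members, where 0.0509% of all genes were called, and DESeq2 called 1. An unadjusted p under 0.05 was reached by 14, all with higher values, but the share of all genes at that threshold was not counted. Sc5d, the sterol member with the lowest p, gave 21.2, 7.43 and 8.68 CPM with vehicle and 18.2, 36.7 and 36.8 CPM with AP-3-84 (log2 fold change 1.31, standard error 0.317, adjusted p 0.11 in edgeR). Scd2 gave 57.3, 4.28 and 9.42 against 52.2, 89.1 and 48.9 CPM (log2 fold change 1.44, standard error 0.606, adjusted p 0.326 in edgeR). In both genes vehicle replicate 1 reached into the range of the treated libraries.

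The result in KO_M2 depended on that library and on the filter on low counts. Without KO_M2 vehicle replicate 1, edgeR called 10 members, all higher: Hmgcs1, Mvd, Fdps, Fdft1, Cyp51, Msmo1, Sc5d, Insig1, Stard4 and Scd2. Without KO_M2 AP-3-84 replicate 1 it called Sc5d and Fdft1. With no filter on low counts 10 were called, too. The share of all genes called in these runs is not given here, so these counts show nothing particular to members. The macrophage marker sum was 18400, 9340 and 5890 CPM in the vehicle libraries, where the 2 libraries with low sterol sums also had low macrophage markers. Vehicle replicate 3 was rich in neutrophil markers. In treated replicates 1, 2 and 3 the macrophage sum was 14900, 19100 and 13800 CPM. The sterol sums of these were 738, 1140 and 1180 CPM, so the order seen with vehicle did not hold. The part of these markers was not tested. Without the 3 libraries highest in neutrophil markers 0 members were called. The difference between the responses of KO_M2 and WT_M2 was called for 0 members, where 1.77% of all genes were called. An unadjusted p under 0.05 was reached by 7, DESeq2 called 0, and edgeR called 8 without KO_M2 vehicle replicate 1.

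The other 3 populations gave no called member with AP-3-84. In WT_M1 edgeR called 0, where 0.017% of all genes were called, with 1 member at an unadjusted p under 0.05 and 0 by DESeq2. Ggps1, which makes geranylgeranyl diphosphate, had the lowest p there, with 41.4, 34.7 and 35.2 CPM with vehicle and 26.6, 29.7 and 20.5 CPM with AP-3-84 (log2 fold change -0.53, standard error 0.163, adjusted p 0.397 in edgeR). In WT_M2 edgeR called 0, where 1.21% of all genes were called, with 1 member at an unadjusted p under 0.05 and 0 by DESeq2. Insig1, which did not itself reach that threshold, gave 13.6, 26.8 and 28.2 against 32.4, 41 and 28.6 CPM in WT_M2 (log2 fold change 0.58, standard error 0.298, adjusted p 0.461 in edgeR). Its groups were separated only narrowly, at 28.2 against 28.6 CPM. The median of the sterol enzymes in WT_M2, 0.18, became -0.09 without WT_M2 vehicle replicate 1. In KO_M1 edgeR called 0, as it did for all genes (0%), with 1 member at an unadjusted p under 0.05 and 0 by DESeq2. Dhcr7, the last reductase of the pathway, gave 11.5, 8.1 and 8.26 against 4.8, 6.7 and 4.45 CPM in KO_M1 (log2 fold change -0.80, standard error 0.348, adjusted p 1 in edgeR), without overlap. The difference between the responses of KO_M1 and WT_M1 was called for 0 members, against 0.00849% of all genes, with 2 at an unadjusted p under 0.05 and 0 by DESeq2.

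**Figure D5:**
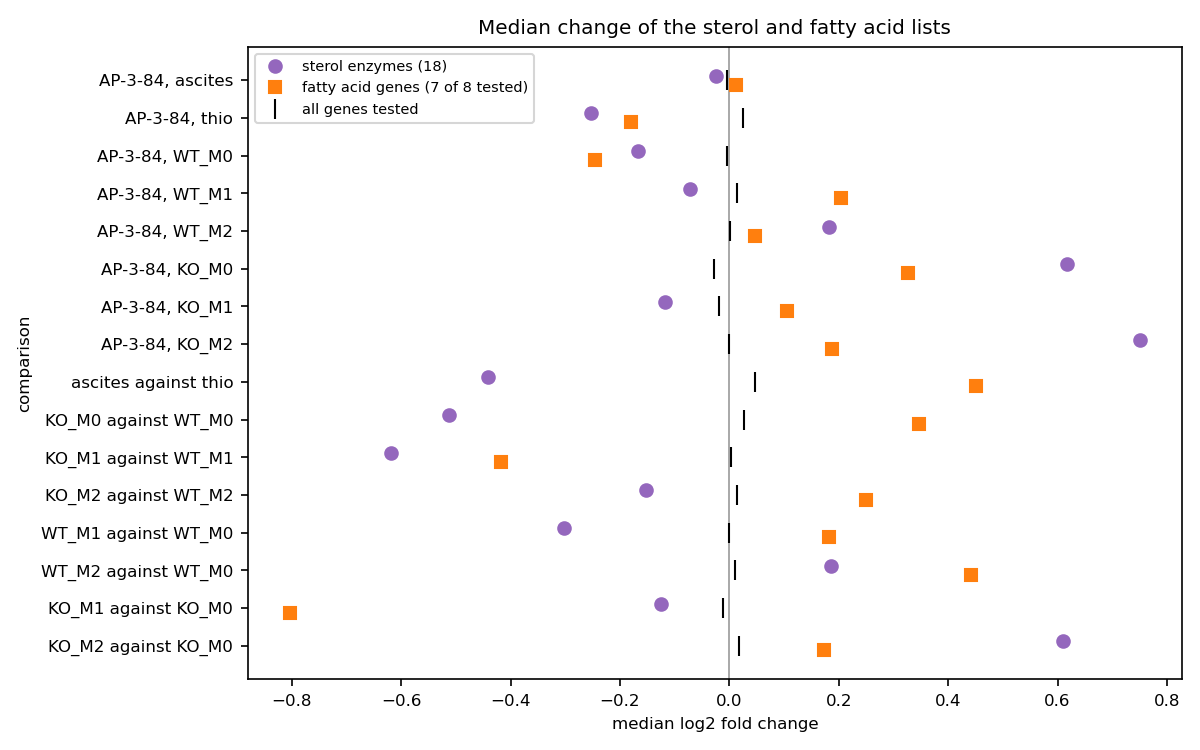
Median log2 fold change (horizontal axis) of the 18 sterol enzymes, the 7 tested fatty acid genes and all genes tested in the 16 comparisons of 2 groups (vertical axis). The sterol and fatty acid medians lie on opposite sides of 0 in 7 of the 16, among them ascites against thio (-0.44 and 0.45), KO_M0 against WT_M0 (-0.51 and 0.35) and WT_M1 against WT_M0 (-0.30 and 0.18), and both lie above 0 for AP-3-84 in KO_M0 and KO_M2.

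With IL-4 and IL-13 or with LPS and IFN-γ, members moved in both directions. In WT_M2 against WT_M0, 5 members were called, 2 higher and 3 lower, where 23.4% of all genes were called (12.7% higher and 10.7% lower), so the members' 15.6% was below the background. Hsd17b7 went from 24.5, 18.6 and 21.2 CPM in WT_M0 to 8.9, 6.94 and 7.92 CPM in WT_M2 (log2 fold change -1.43, standard error 0.298, adjusted p 0.000602 in edgeR), without overlap. Dhcr7 went from 8.08, 9.32 and 8.43 to 8.07, 19 and 27.2 CPM (log2 fold change 1.06, standard error 0.325, adjusted p 0.0161 in edgeR). Mvd, the mevalonate diphosphate decarboxylase, went from 23.6, 40.1 and 33.5 to 39.8, 61.5 and 94.7 CPM (log2 fold change 1.01, standard error 0.324, adjusted p 0.0228 in edgeR). Both Dhcr7 and Mvd overlapped between groups through WT_M2 vehicle replicate 1, which was high in neutrophil markers and also apart in Marco, Saa3 and Ifit1. Sc5d went from 16.8, 17.4 and 15.6 to 4.73, 11.5 and 8.87 CPM (log2 fold change -0.997, standard error 0.337, adjusted p 0.0295 in edgeR). Ggps1 was lower by -0.45 on the log2 scale (edgeR adjusted p 0.0408). Leaving out WT_M0 vehicle replicate 1 or WT_M2 vehicle replicate 3, or fitting these 2 groups alone, left 1 call, which was Hsd17b7. Leaving out WT_M0 vehicle replicate 2 or 3 left 3. Sc5d lost its call without WT_M2 vehicle replicate 1 (edgeR adjusted p 0.161) and without WT_M0 vehicle replicate 2. Without the 3 libraries highest in neutrophil markers, 1 of which is in this comparison, 7 members were called and Sc5d was not (edgeR adjusted p 0.157). Macrophage markers summed to 24900 to 30900 CPM in WT_M2 and 30200 to 38400 CPM in WT_M0, and Mki67 was 82.4 to 137 against 194 to 272 CPM. Their part was not tested.

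In WT_M1 against WT_M0 edgeR called 0 members, where 15.5% of all genes were called. An unadjusted p under 0.05 was reached by 4, all lower, and DESeq2 called 0. Hsd17b7 gave 9.84, 16.2 and 12.1 CPM in WT_M1 (log2 fold change -0.75, standard error 0.284, adjusted p 0.0689 in edgeR). Acly had a log2 fold change of 0.22 (standard error 0.136, adjusted p 0.296 in edgeR). Total-count scaling, which moved the median of all genes to -0.30, called 5 lower: Fdps, Hmgcs1, Hsd17b7, Msmo1 and Stard4. A fit of these 2 groups alone called 7 lower. Macrophage markers summed to 43600 to 46500 CPM in WT_M1 and 30200 to 38400 CPM in WT_M0, and Mki67 was 74.5 to 82.1 against 194 to 272 CPM, whose part was not tested.

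In KO_M1 against KO_M0, 6 members were called, 1 higher and 5 lower, where 44.5% of all genes were called (22.8% higher and 21.8% lower). The members' 18.8% was below that background. Fads1 fell from 70, 86.2 and 72.2 CPM in KO_M0 to 21.7, 40.8 and 26.6 CPM in KO_M1 (log2 fold change -1.36, standard error 0.226, adjusted p 1.4e-05 in edgeR). Acat2 rose from 7.86, 5.85 and 10.8 to 17.6, 18 and 19.2 CPM (log2 fold change 1.15, standard error 0.265, adjusted p 0.000729 in edgeR). Hmgcs1 fell from 71.5, 74.8 and 65.2 to 22.5, 29.9 and 19 CPM (log2 fold change -1.57, standard error 0.39, adjusted p 0.0019 in edgeR). The groups did not overlap in any of these 3 genes, which were picked by lowest p. Cyp51 fell from 36.9, 44.6 and 31.4 to 11.5, 15.4 and 9.82 CPM (log2 fold change -1.62, standard error 0.431, adjusted p 0.0034 in edgeR). Msmo1 fell from 51.1, 54.2 and 52.2 to 25.5, 30.1 and 32.1 CPM (log2 fold change -0.84, standard error 0.273, adjusted p 0.0131 in edgeR). Scap was lower by -0.59 on the log2 scale (edgeR adjusted p 0.0172) and lost that call without either KO_M0 vehicle replicate 1 or KO_M1 vehicle replicate 2. The call of Msmo1 was lost without KO_M1 vehicle replicate 1. Macrophage markers summed to 16100 to 25100 CPM in KO_M1 and 32300 to 38900 CPM in KO_M0, neutrophil markers to 988 to 2550 against 597 to 748 CPM, and Mki67 was 133 to 220 against 27.5 to 40.6 CPM. Their part was not tested.

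In KO_M2 against KO_M0, 6 sterol enzymes were higher, while the share of members called, 21.9%, was below that of all genes. In all 7 members were called, 6 higher and 1 lower, where 38% of all genes were called (20.1% higher and 18% lower), and the median log2 fold change was 0.61 over the sterol enzymes, 0.17 over the fatty acid genes and 0.02 over all genes. Acat2 rose from 7.86, 5.85 and 10.8 to 28.4, 27.9 and 30 CPM (log2 fold change 1.80, standard error 0.261, adjusted p 2.52e-06 in edgeR). Fdps rose from 28, 28.3 and 20 to 90.7, 51.6 and 43.4 CPM (log2 fold change 1.28, standard error 0.302, adjusted p 0.00127 in edgeR). Acat2 was tight in KO_M2 while Fdps was spread, with replicate 1 the highest. Mvd went from 23.3, 19.4 and 27.6 to 87.8, 36.9 and 24.1 CPM (log2 fold change 1.07, standard error 0.332, adjusted p 0.0117 in edgeR). Scap, the SREBP escort, fell from 36.7, 28 and 28.9 to 22.3, 20.3 and 18.6 CPM (log2 fold change -0.62, standard error 0.2, adjusted p 0.0154 in edgeR). Idi1, Sqle and Dhcr7 were also higher. Without KO_M2 vehicle replicate 1 there were 3 calls and without KO_M0 vehicle replicate 3 there were 4. Without KO_M2 vehicle replicate 2 or 3 there were 10, as there were without the 3 libraries highest in neutrophil markers. Macrophage markers summed to 5890 to 18400 CPM in KO_M2 and 32300 to 38900 CPM in KO_M0, neutrophil markers to 349 to 3350 against 597 to 748 CPM, and Mki67 was 103 to 252 against 27.5 to 40.6 CPM. Their part was not tested.

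The shift with polarization differed between genotypes for some members, 12.5% of those tested for M1 and 15.6% for M2, both below the share of all genes. The change from M0 to M1 differed between KO and WT in 4 members, where 20.7% of all genes were called (11.2% higher and 9.51% lower): Fads1 (-1.54 on the log2 scale, edgeR adjusted p 0.000696), Acat2 (1.23, edgeR adjusted p 0.014), Scap (-0.89, edgeR adjusted p 0.023) and Hsd17b7 (1.24, edgeR adjusted p 0.0361). Leaving out KO_M0 vehicle replicate 1 or WT_M1 vehicle replicate 3 left 2 of these calls, Fads1 and Acat2, which held whichever library was left out. Scap was also lost without KO_M1 vehicle replicate 2 or WT_M0 vehicle replicate 2, and Hsd17b7 without KO_M0 vehicle replicate 2, KO_M1 vehicle replicate 3, WT_M0 vehicle replicate 1 or WT_M1 vehicle replicate 1. The change from M0 to M2 differed in 5 members, 4 higher and 1 lower in KO, where 27.1% of all genes were called (13.9% higher and 13.2% lower). They were Acat2 (1.78, edgeR adjusted p 0.000494), Hsd17b7 (1.97, edgeR adjusted p 0.00121), Idi1 (3.24, edgeR adjusted p 0.0156), Fdps (1.25, edgeR adjusted p 0.0268) and Scap (-0.80, edgeR adjusted p 0.0337). The value of Idi1 rests on few counts, 11, 3 and 3 in the KO_M0 vehicle libraries and 10, 22 and 12 in those of WT_M2. Total-count scaling called 5 higher and 0 lower in M2 and 2 higher and 1 lower in M1, Scap being lost in both. Leaving out KO_M0 vehicle replicate 3 or WT_M0 vehicle replicate 2 left 3 calls for M2, and only Acat2 and Hsd17b7 held whichever library was left out. Acat2 and Hsd17b7 were called in both differences, which share the M0 vehicle libraries of both genotypes.

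Genes of the further lists were also called between polarization states. In WT_M2 against WT_M0, Abcg1, an LXR-driven cholesterol exporter, was 31.38 ± 15.4 against 8.99 ± 1.6 CPM (n = 3, SD; log2 fold change 1.80, edgeR adjusted p 0.000462), and Soat1 was 496.1 ± 31.4 against 283.7 ± 12.1 CPM (n = 3, SD; log2 fold change 0.81, edgeR adjusted p 0.000681). In KO_M2 against KO_M0, Tmem97 was 71.97 ± 10.4 against 27.47 ± 1.55 CPM (n = 3, SD; log2 fold change 1.39, edgeR adjusted p 8.16e-07), and Mylip, an LXR target that marks lipoprotein receptors for degradation, was 3.17 ± 2.41 against 34.76 ± 6.48 CPM (n = 3, SD; log2 fold change -3.46, edgeR adjusted p 7.18e-06). In KO_M1 against KO_M0, Nr1h3 was 119.1 ± 39.1 against 22.65 ± 4.15 CPM (n = 3, SD; log2 fold change 2.39, edgeR adjusted p 1.05e-08).

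Some member counts may hold reads of other genes. In the last 500 bases of its transcripts, where these libraries are read, Fdps shared up to 68.1% of its 30-base words with another gene, Idi1 44.8%, Acat2 25.6% (with Acat3) and Acaca 22.7%, and for Fdps, Idi1 and Acaca the sharing genes are predicted genes (Gm names). Mvd, Fdft1, Lss, Cyp51 and Srebf1 have a gene on the opposite strand at their 3′ end, such as Ctsb beside Fdft1. How such reads were counted is not given in the sources used here, so the values of these members are less certain than those of Hmgcs1, Msmo1, Hsd17b7, Fads1 or Acly, for which neither was found.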

How the data were processed

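Gene counts of 48 libraries were deposited by the authors as 1 table of 51789 gene rows, 51596 with a symbol; the values are whole-number counts, not normalized. The submitters' processing notes name RSEM, Bowtie2 and DESeq2 without a role. For the counting, genome build, annotation and strand setting are each not given in the sources used here. Samples were grouped by title, description and treatment labels.

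Peritoneal and bone marrow-derived libraries were fitted separately with edgeR 4.0.16 (limma 3.58.1, R 4.3.3): low-count filter, TMM scaling, quasi-likelihood test, Benjamini-Hochberg adjustment over 16955 and 11779 genes. Their biological coefficients of variation were 0.168 and 0.225. TMM factors ran from 0.945 to 1.05 and from 0.829 to 1.12. CPM values are computed here per 1000000 TMM-scaled counts within each set and are not set side by side across sets. The 22 comparisons were AP-3-84 against vehicle in 8 populations, 8 pairs of vehicle groups and 6 differences between such comparisons. The KO_M0 vehicle group enters several of them. No 2 libraries were identical.

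The members, the gene lists and the tests were chosen with earlier results of these data known. Per-library values are given for up to 4 sterol and 3 fatty acid members chosen by lowest p among a comparison's called members. Where none was called, they are given for at most 1 of each. Up to 3 other pathway genes by lowest p are named. Promoters came from RefSeq (GRCm38.p6), and shared 3′ sequence was searched in the reference annotation with Python 3.11.15. The model was tested on simulated counts before use. Alternatives were DESeq2 1.42.0, other scalings, no filter, a replicate block, only the groups compared and leaving out single libraries. Leaving out the 3 libraries highest in neutrophil markers was added after seeing the data.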

Additional observations from a re-analysis of the deposited data

Results flagged for a closer look

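Tests of a difference between genotypes picked out 15 results for 8 members. For the response to AP-3-84 in KO_M0 minus that in WT_M0, on the log2 scale, Acat2 was at 2.3362, Hsd17b7 at 1.9498, Fdps at 1.6271, Scd2 at 3.275 and Fasn at 1.1546, while Fads1 was at -1.0855. For the change from M0 to M1 in KO minus that in WT, Acat2 was at 1.229, Hsd17b7 at 1.2408, Fads1 at -1.539 and Scap at -0.891. For the change from M0 to M2 in KO minus that in WT, Acat2 was at 1.7763, Hsd17b7 at 1.9695, Idi1 at 3.2441, Fdps at 1.2469 and Scap at -0.8046. The value of Idi1 rests on few counts, 11, 3 and 3 in the KO_M0 vehicle libraries. The 3 KO_M0 vehicle libraries enter all 15 results, and in these libraries Acat2 and Hsd17b7 had their lowest group mean among the bone marrow-derived groups and Fads1 its highest. The p-values stand beside these results in the report.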

How the results depend on the processing

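Over 1031 alternatives of single called members, 874 kept the call, 157 lost it and 0 reversed. Of 636 alternatives of list medians, 559 moved by less than 1 SD of the libraries and 77 by more. With 1 library left out, the number of called members ranged as follows. For AP-3-84 it was 0 to 2 in thio (3 with all libraries), 3 to 12 in KO_M0 (8) and 0 to 10 in KO_M2 (0). For vehicle groups it was 0 to 4 in KO_M1 against WT_M1 (3), 0 to 3 in KO_M2 against WT_M2 (0), 1 to 6 in WT_M2 against WT_M0 (5) and 3 to 10 in KO_M2 against KO_M0 (7). For differences it was 3 to 11 for AP-3-84 in KO_M0 minus WT_M0 (6), 0 to 8 in KO_M2 minus WT_M2 (0), 2 to 4 for M1 polarization (4) and 3 to 6 for M2 polarization (5).

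Without the filter on low counts, the count became 1 for AP-3-84 in WT_M0, 10 for AP-3-84 in KO_M2, 7 in KO_M1 against WT_M1, 1 in KO_M2 against WT_M2, 4 in WT_M1 against WT_M0 and 4 for the AP-3-84 difference KO_M2 minus WT_M2. With only the groups compared in the fit it became 5 for AP-3-84 in thio, 2 for AP-3-84 in KO_M0, 7 in KO_M1 against WT_M1, 7 in WT_M1 against WT_M0, 1 in WT_M2 against WT_M0 and 3 for M2 polarization. DESeq2 called 1 for AP-3-84 in KO_M2. Total-count scaling called 5 in WT_M1 against WT_M0. Only the larger changes are listed here, and other counts moved less. For example, KO_M0 against WT_M0 went from 10 to 12 without the filter. DESeq2 called 10 instead of 8 for AP-3-84 in KO_M0. All these counts are of members only, without the share of all genes called in each run. The causes were not tested.

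Whether replicate numbers pair the samples is not known. Same-numbered vehicle and AP-3-84 libraries had deviation correlations from -0.567 to 0.57, and in no population were all 3 above 0.1. In KO_M1, replicates 1 and 2 gave 0.501 and 0.57. With 3 libraries per group these correlations cannot exclude pairing. With the replicate number as a block, the count became 0 for AP-3-84 in thio, 16 in ascites against thio and 4 in KO_M1 against WT_M1, and stayed the same in the other comparisons.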
